A study of Homo sapiens with 9 samples.

Results

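The genes described here are 47 components of the machinery that copies DNA and repacks it into chromatin, selected by symbol from a list of replication proteins, out of 34961 genes in the deposited table. All 47 symbols were found, and all 47 passed the filter on low counts that left 20156 genes for testing. The set holds 5 genes of origin recognition and licensing, 6 subunits of the MCM helicase ring, 6 factors of helicase activation, 9 subunits of primase and the replicative polymerases, and 6 genes of the sliding clamp and its loader. It also holds the 3 subunits of the single-strand binding protein RPA, 3 genes of Okazaki fragment processing, 2 of the fork checkpoint, 4 of nucleotide supply and 3 of chromatin assembly.

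RNA was sequenced from WA09 (H9), an established line of human embryonic stem cells, on its way to serotonin neurons. The cells carry EGFP, a fluorescent reporter, knocked in at TPH2, the gene of the enzyme that starts serotonin synthesis in neurons. Day0 libraries are labelled as embryonic stem cells, Day21 libraries as neural progenitors and Day42 libraries as serotonin neurons positive for TPH2, with 3 libraries a day. All 9 libraries share the knock-in, the cell line and a treatment label of induced serotonin differentiation, which the Day0 libraries carry too. The 3 libraries of a day are numbered as biological replicates, and no label ties them to separate differentiations, so a p-value here reflects the scatter of these 3 libraries a day and nothing wider, and that scatter could be technical alone. The labels do not state whether or how Day42 cells were sorted by the reporter. In bulk RNA, a smaller share of dividing cells and less RNA of a gene per dividing cell cannot be told apart.

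A human cell replicates its genome from many origins. ORC, CDC6 and CDT1 load the ring-shaped MCM helicase on DNA before S phase, and CDC45 and the GINS complex turn the loaded ring into a working helicase. Primase and the polymerases then copy both strands, held by the PCNA clamp, while CAF-1 and ASF1 place new histones behind the fork. Most of these genes are transcribed at the passage from G1 to S phase by E2F transcription factors. Neurons have left the cell cycle for good, whereas embryonic stem cells and neural progenitors divide.

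Total counts lay between 58526466 and 69658328 per library. Genes with at least 1 count numbered 22198 to 24359 on Day0 and 24581 to 24741 on Day21, but 16077, 17101 and 10797 in replicates 1, 2 and 3 of Day42, so that Day42 replicate 3 stood apart. Levels are given as CPM (counts scaled to library size) after TMM scaling, which corrects for differences in library composition. A list of 8 serotonin neuron markers summed to 1116.6 to 1347.6 CPM on Day42 against at most 8.46 on the earlier days, although SLC6A4, the serotonin transporter gene, had no count on Day42. A list of 8 neural progenitor markers summed to 1290.2 to 1453.8 CPM on Day21 and still to 292 to 450 CPM on Day42, most of it VIM, while the progenitor gene HES5 had no count there. Pluripotency markers summed to at most 0.142 CPM on Day42. Markers of other cells were present on Day21 too, where 7 mesenchymal markers summed to 582 to 631 CPM (28.8 to 34.2 CPM on Day0 and 124 to 157 CPM on Day42) and 8 neuron markers to 836 to 1215 CPM (7313.5 to 8459.2 CPM on Day42). Their part in the results was not tested. Because counts in the table pile up at multiples of 4, a library with no count of a gene was taken to allow up to 12 counts, and folds against such a day are lower bounds.

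Promoter sequences are described first, because the members are known as E2F targets, although they were searched after the expression tests. RefSeq promoters of build GRCh38.p14, each 300 bases long with 250 bases before the annotated transcript start, were matched by symbol for 40 of the 47 members. The members without an entry are RPA2, MCM4, RPA3, DNA2, POLD3, MCM5 and GINS4. An E2F motif was searched on both strands as TTTGGCGC, TTTCGCGC, TTTCCCGC or TTTGCCGC, and overlapping matches were merged. It was found in 18 of the 40 promoters (45.0%), against 3.33% of 27305 RefSeq promoters and 5.1% of 12613 promoters of genes tested here. All 4 MCM ring genes with a sequence, MCM2, MCM3, MCM6 and MCM7, hold at least 1 match. The lines that follow show these 4, then CDT1 and POLA2, which had no count in any Day42 library, then PCNA and POLE2, which kept counts in all 3 Day42 libraries. Each is written 5′ to 3′ on the strand of the gene, with the E2F match in capitals.
MCM2: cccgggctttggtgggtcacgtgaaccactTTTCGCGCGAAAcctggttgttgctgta
MCM3: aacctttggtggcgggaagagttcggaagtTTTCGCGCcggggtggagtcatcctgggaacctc
MCM6: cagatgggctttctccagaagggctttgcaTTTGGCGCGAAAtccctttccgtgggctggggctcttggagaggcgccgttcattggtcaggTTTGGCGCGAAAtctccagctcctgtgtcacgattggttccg
MCM7: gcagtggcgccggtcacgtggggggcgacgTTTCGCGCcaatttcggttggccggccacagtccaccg
CDT1: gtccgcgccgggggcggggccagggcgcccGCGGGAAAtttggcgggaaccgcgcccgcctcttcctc
POLA2: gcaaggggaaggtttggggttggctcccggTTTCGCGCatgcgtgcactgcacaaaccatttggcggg
PCNA: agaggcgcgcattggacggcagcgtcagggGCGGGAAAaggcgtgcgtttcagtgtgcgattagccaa
POLE2: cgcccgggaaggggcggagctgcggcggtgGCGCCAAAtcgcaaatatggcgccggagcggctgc

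These windows lie at chr3:127598383-127598440 on the plus strand for MCM2, chr6:52284713-52284776 on the minus strand for MCM3, chr2:135876492-135876625 on the minus strand for MCM6 and chr7:100101369-100101436 on the minus strand for MCM7. CDT1 is shown from chr16:88803724-88803791 (plus), POLA2 from chr11:65261879-65261946 (plus), PCNA from chr20:5126644-5126711 (minus) and POLE2 from chr14:49688185-49688249 (minus). In MCM2 and MCM6 each match joins E2F motifs read from both strands, and MCM6 carries 2 such matches. MCM3 and MCM7 each hold a second match further upstream that is not shown. The 18 promoters held 21 matches in all, whose first bases had a median position of -35 from the start, and 9 lay wholly within 100 bases before it. The motif was in 7 of 17 promoters of members called lower on Day42 (41.2%) and in 11 of 23 of the others (47.8%); the difference between these shares was not tested.

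The other motifs set the members apart less. The CCAAT box (CCAAT) was in 60.0% of the 40 promoters, against 36.4% of promoters of genes tested, and the GC box (GGGCGG) in 75.0% against 67.5%. The CHR element TTTGAA, known from genes of mitosis, was in 5.0% against 10.1%. Each motif was searched on both strands, and matches of different motifs were counted separately even where they overlap. A match describes letters in this window and does not show that a factor binds there.

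**Figure D1:**
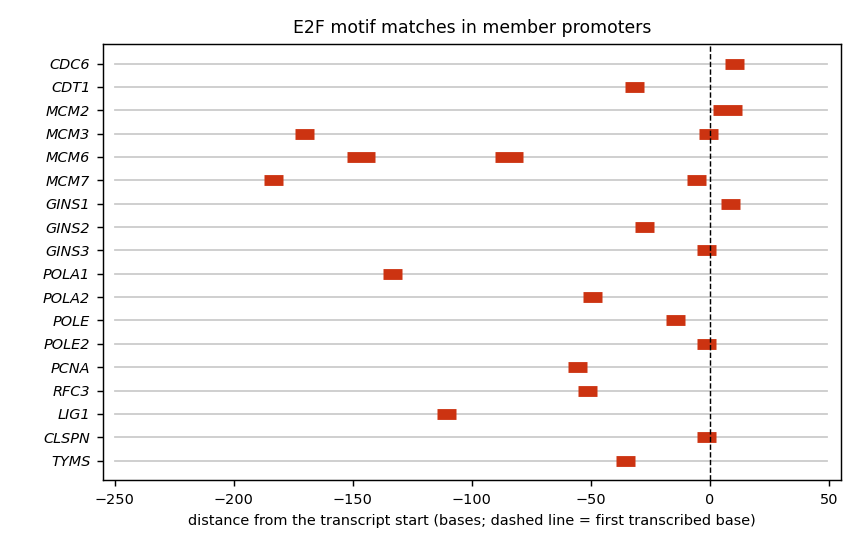
Position of each E2F match (red) in the 18 member promoters that hold at least 1, in bases from the annotated transcript start (dashed line), with the window searched in grey. Of the 21 matches, 9 lie wholly within 100 bases before the start and 7 lie across or after it.

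Replication genes were at similar summed levels in stem cells and progenitors and far lower on Day42. Summed over the 47 members, Day0 libraries held 4997.1 ± 212 CPM, Day21 libraries 4765.3 ± 144 CPM and Day42 libraries 567 ± 65.3 CPM (SD, n = 3). The Day42 libraries gave 638, 555 and 509 CPM, against 4613.4 CPM in the lowest Day21 library. The Day42 mean was 11.9% of the Day21 mean, or 17.1% with CPM of plain library totals and 20.4% with summed FPKM, the deposited values scaled for length and depth. No test was made on such sums.

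Summed levels of the roles differed in how much of the Day21 level was seen on Day42. Primase and polymerase genes stood at 33.2% of it, RPA at 22.1% and the clamp and its loader at 16.9%. Okazaki fragment processing followed with 10.8%, licensing with 6.99%, the MCM ring with 6.29%, nucleotide supply with 5.64% and helicase activation with 4.74%. Chromatin assembly, at 2.25%, and the fork checkpoint, at 2.21%, were lowest. Single abundant genes weighed heavily in such sums. On Day42, POLD2 gave 94.5 of the mean 144 CPM of primase and polymerases, and RPA2 gave 89.0 of the mean 119 CPM of RPA. Taken alone, RPA1, RPA2 and RPA3 stood at 18.1%, 39.9% and 6.44% of Day21, so a share of a role does not describe each of its genes. MCM ring genes summed to 91.3, 46.4 and 17.2 CPM in the Day42 libraries and polymerase genes to 121, 97.2 and 215 CPM, whereas the clamp and its loader were even at 122, 135 and 132 CPM. The first places rested on Day42 replicate 3, since without it RPA stood at 26.8% and primase and polymerases at 25.1%. Without it Okazaki fragment processing stood at 16.2%, helicase activation at 3.27%, and chromatin assembly and the fork checkpoint at 3.38% and 3.31%. Summed FPKM gave higher shares, 57.9% for primase and polymerases and 41.8% for RPA, and put the fork checkpoint at 3.15% above chromatin assembly at 2.65%, so neighbouring roles in this order are not separated.

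**Figure D2:**
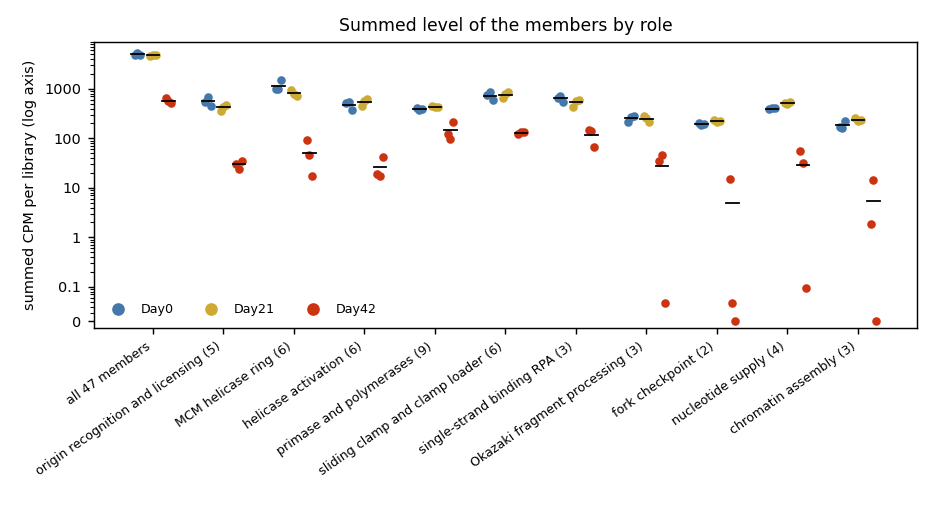
Summed CPM per library (log axis) of all 47 members and of each role, with the number of genes in brackets, for Day0 (blue), Day21 (yellow) and Day42 (red); points are libraries, a sum of 0 sits at the mark 0 and black lines are means of 3. Every Day42 point lies under the Day0 and Day21 points of its role, for all members at 509 to 638 CPM against 4613.4 CPM or more.

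The comparison of Day42 with Day21 asks what neurons keep of the machinery of dividing progenitors. With an edgeR quasi-likelihood test over all genes (a call needs an adjusted p below 0.05 together with a log2 fold change of 1 or more in size), 21 of the 47 members fell (44.7%) and 0 rose. Of all genes tested, 19.7% were called lower. The log2 fold change was negative for 46 of 47 members, with a median of -3.72 beside a median of -0.54 over all genes tested. Setting the members without a Day42 count at their bounds cannot move the members' median, because all of these bounds lie under it. All 3 Day42 libraries lay under all 3 Day21 libraries for 42 members (89.4%), against 34.7% of genes tested. Plain library totals moved the median of all genes by 0.53, to 0, and the members' median was then -3.19 with 18 of 47 called lower, beside 16.8% of genes tested.

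The number of calls rested on Day42 replicate 3. Without it, 35 members were called lower, against 22.3% of all genes tested, and 20 of the 21 were among them. RPA2 lost its call, and POLE2, PRIM1, PRIM2 and GINS4 were among those that gained one. Of the 21 called members, 14 kept their call in all alternatives tried, namely ORC1, CDT1, GMNN, MCM3, MCM7, CDC45, POLA2, PCNA, RPA3, DNA2, TIMELESS, RRM2, TK1 and CHAF1A. The other 7 were MCM5, GINS2, POLD1, POLD2, RFC2, RPA2 and TYMS, each of which lost it in at least 1.

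**Figure D3:**
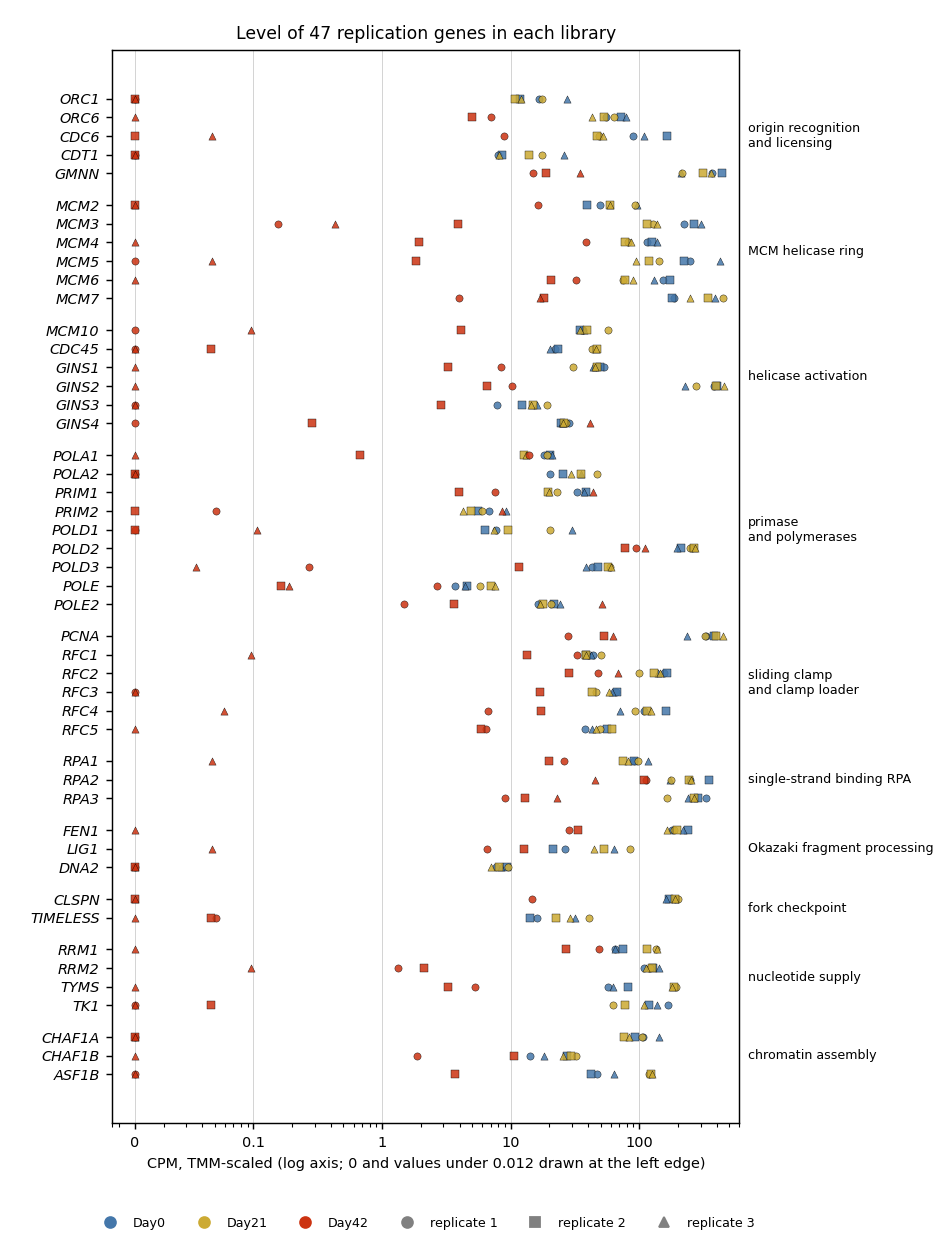
CPM (log axis, 0 drawn at the left edge) of each member in each library, ordered by role; colour gives the day and the symbol the replicate number. Day0 and Day21 points overlap for most genes, while 42 members have all Day42 points to the left of all Day21 points, and triangles of Day42 replicate 3 lie far right for GINS4, PRIM1, PRIM2 and POLE2.

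Licensing genes fell in 3 of 5 cases (60.0%, beside 19.7% of all genes tested). Roles hold few genes, and no role was tested against that share. ORC1, the large subunit of the origin recognition complex (chr1:52372829-52404423), gave 16.5, 11.9 and 27.4 CPM in the Day0 libraries and 17.4, 10.8 and 12 CPM in those of Day21, and had no count in all 3 libraries of Day42. The days before overlapped, and Day42 lay under both. The level on Day42 was at least 92.1-fold lower than on Day21 (edgeR adjusted p = 0.000839). CDT1, which brings the MCM ring to origins, gave 7.93, 8.59 and 25.8 CPM, then 17.4, 13.8 and 8.08 CPM, then no count, at least 89.9-fold lower than Day21 (edgeR adjusted p = 0.00158). GMNN encodes geminin, the inhibitor of CDT1, and was the licensing gene with the most RNA left. It was at 215, 311 and 358 CPM on Day21 and at 14.8, 18.8 and 34.4 CPM on Day42, a log2 fold change of -3.70 ± 0.44 (SE, edgeR adjusted p = 0.00119). ORC6 and CDC6 were seen in some Day42 libraries and not in others. CDC6, the loader that ORC recruits, went from 49, 46.6 and 52.0 CPM to 8.81, 0 and 0.0475 CPM, which did not pass (edgeR adjusted p = 0.169). ORC6 was at 7.08, 4.99 and 0 CPM on Day42 and did not pass either (edgeR adjusted p = 0.117).

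In the MCM ring, which is built from 1 copy of each of 6 related subunits, every subunit had all Day42 libraries under all Day21 libraries, and 3 of 6 passed the test. MCM5 (chr22:35400134-35424501) gave 249, 223 and 425 CPM in stem cells, 143, 119 and 94.2 CPM in progenitors and 0, 1.85 and 0.0475 CPM in Day42 libraries. No libraries of any pair of days overlapped. Its log2 fold change from Day21 to Day42 was -7.54 ± 1.76 (edgeR adjusted p = 0.0144). MCM3 was at 0.154, 3.87 and 0.427 CPM on Day42 against 115 to 138 CPM on Day21 (log2 fold change -6.42 ± 1.16, edgeR adjusted p = 0.00502). MCM7 stayed above 12 counts in all 3 Day42 libraries, at 3.93, 18.3 and 16.8 CPM after 187, 179 and 389 CPM on Day0 and 446, 339 and 246 CPM on Day21 (log2 fold change -4.73 ± 0.66, edgeR adjusted p = 0.00214).

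MCM2, MCM4 and MCM6 did not pass, and their Day42 libraries disagreed. MCM2 (chr3:127598410-127622436) gave 49.8, 39.0 and 95.8 CPM in stem cells, 92.4, 59.0 and 59.0 CPM in progenitors and 16.2, 0 and 0 CPM in Day42 libraries, the last from 1265, 0 and 0 counts. It was thus plainly present in replicate 1 and not seen in replicates 2 and 3. The log2 fold change was -3.70 ± 2.26 (edgeR adjusted p = 0.288). MCM4, at 38.5, 1.93 and 0 CPM, and MCM6, at 32.4, 20.5 and 0 CPM, were seen in replicates 1 and 2 and not in replicate 3. In MCM2, 23.6% of exon bases also belong to genes on the other strand, TPRA1 among them, so its reads are uncertain without a known strand setting.

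Helicase activation genes were called in 2 of 6 cases (33.3%, beside 19.7% of all genes tested). CDC45, which rides with the ring as part of the active helicase (chr22:19479457-19520612), gave 22, 23.4 and 20.1 CPM in stem cells, 42.8, 47.2 and 46.0 CPM in progenitors and 0, 0.0472 and 0 CPM in Day42 libraries. The 3 days did not overlap. The Day42 level rests on 4 counts in 1 library. With each Day42 library set at the limit of 12 counts, progenitors were 311-fold higher (log2 change -8.28), and the fitted log2 fold change of -11.31 ± 1.38 (edgeR adjusted p = 0.00132) goes beyond what these counts resolve. GINS2 had the highest level per length of the GINS subunits on Day21 and went from 380, 402 and 225 CPM on Day0 and 274, 397 and 453 CPM on Day21 to 10.3, 6.56 and 0 CPM (log2 fold change -6.06 ± 1.65, edgeR adjusted p = 0.0276). GINS1, at 8.43, 3.25 and 0 CPM on Day42, GINS3, at 0, 2.89 and 0 CPM, and MCM10, at 0, 4.11 and 0.0949 CPM, lay under Day21 without passing. GINS4 was different. Its Day42 libraries gave 0, 0.283 and 41.7 CPM against 25.3 to 26.7 CPM on Day21, so that replicate 3 alone exceeded the progenitors. Genes on the other strand share 23.6% of its exon bases too, which leaves its reads as uncertain as those of MCM2.

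Primase and polymerase genes had the median log2 fold change nearest 0 of all roles, -1.62. Of these genes, 3 of 9 were called lower (33.3%, beside 19.7% of all genes tested). POLA2, the second subunit of polymerase alpha (chr11:65261920-65305589), gave 20.3, 25.3 and 35.3 CPM in stem cells, 47.1, 35.4 and 29.5 CPM in progenitors and no count on Day42. Compared with progenitors it was at least 256-fold lower (edgeR adjusted p = 0.00033). A second model on that strand covers 35.1% of its exon bases. POLA1, the catalytic subunit of the same enzyme, was at 14, 0.672 and 0 CPM on Day42 against 19.3, 12.8 and 13.1 CPM, so that replicate 1 lay within the Day21 range. POLD1, the catalytic subunit of polymerase delta, went from 20.2, 9.48 and 7.38 CPM to 0, 0 and 0.107 CPM, an 84.8-fold difference with Day42 set at the limit (fitted log2 fold change -8.36 ± 1.89, edgeR adjusted p = 0.0124). Its partner POLD2 remained among the replication genes with the most RNA per length on Day42. It was at 255, 211 and 197 CPM on Day0, at 248, 264 and 270 CPM on Day21 and at 94.8, 77.2 and 111 CPM on Day42, a log2 fold change of -1.46 ± 0.22 (edgeR adjusted p = 0.00267). With plain library totals or log2 FPKM, POLD2 was not called. POLD3, an accessory subunit of the same polymerase, gave 43.0, 47.6 and 38.4 CPM, then 59.4, 56.6 and 60.3 CPM, then 0.269, 11.6 and 0.0356 CPM (edgeR adjusted p = 0.12 against Day21). POLE, the catalytic subunit of polymerase epsilon, gave 3.70, 4.59 and 4.40 CPM, then 5.73, 7.03 and 7.52 CPM, then 2.66, 0.165 and 0.190 CPM, under Day21 in every Day42 library without passing (edgeR adjusted p = 0.122).

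POLE2, the second subunit of polymerase epsilon, was the only member with a positive log2 fold change, 0.02 ± 1.10 (edgeR adjusted p = 1.0). It was at 16.2, 21.8 and 24.3 CPM on Day0, at 20.7, 17.8 and 16.9 CPM on Day21 and at 1.47, 3.62 and 51.2 CPM on Day42, from 115, 307 and 4312 counts. Replicates 1 and 2 lay under all Day21 libraries and replicate 3 above them. Without replicate 3 the log2 fold change was -2.85 (edgeR adjusted p = 0.00349). PRIM1, the catalytic subunit of primase, had the same shape at 7.53, 3.94 and 44.0 CPM against 22.7, 19.4 and 19.7 CPM, and a log2 fold change of -1.84 without replicate 3 (edgeR adjusted p = 0.00608). PRIM2 gave 0.0512, 0 and 8.55 CPM against 4.28 to 6.01 CPM. GINS4, PRIM1, PRIM2 and POLE2 were the 4 members above every Day21 library in Day42 replicate 3, and 0 members were so in replicates 1 and 2. This count was not made over all genes tested, so it is not shown to be particular to the members. PRIM1 shares 16.2% of its exon bases with other models on the same strand, NACA among them, whereas POLE2 shares none.

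**Figure D4:**
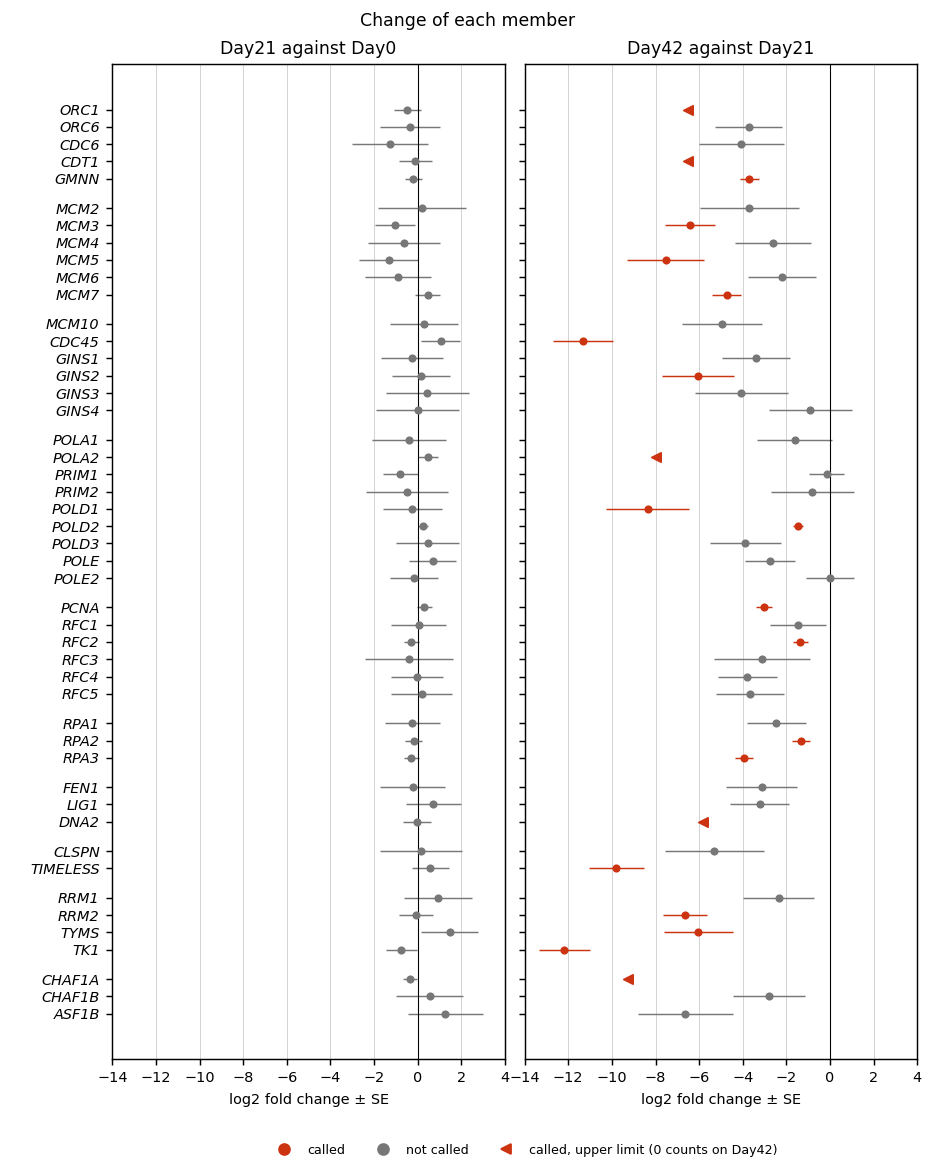
Log2 fold change with its SE for each member, Day21 against Day0 on the left and Day42 against Day21 on the right; red marks called members, grey the others, and arrowheads give the upper limit of the change for the 5 members without a Day42 count, while CDC45, POLD1, TIMELESS and TK1 are drawn at their fitted change from at most 9 counts. On the left 0 members are red, and on the right 21 are, all to the left of 0.

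The clamp and its loader lay under Day21 in all 6 genes, as did 34.7% of all genes tested. Of the 6, 2 were called (33.3%, beside 19.7% of all genes tested). PCNA, the ring that holds polymerases on DNA (chr20:5114953-5126626), had the highest level per length of all members on Day21, 197 ± 19.8 FPKM. It gave 327, 378 and 235 CPM in stem cells, 323, 394 and 449 CPM in progenitors and 27.8, 53.5 and 62.6 CPM in Day42 libraries. The first 2 days overlapped and Day42 did not reach either. Its log2 fold change was -3.02 ± 0.36 (edgeR adjusted p = 0.00116). RFC2, a subunit of the loader, kept more, at 48.0, 28.2 and 68.8 CPM against 99.9, 129 and 144 CPM (log2 fold change -1.36 ± 0.34, edgeR adjusted p = 0.0201), and lost its call in 10 alternatives. The other loader subunits were read unevenly on Day42. RFC1 gave 32.9, 13.4 and 0.0949 CPM, RFC3 0, 16.9 and 0 CPM, RFC4 6.67, 17.3 and 0.0593 CPM, and RFC5 6.39, 5.86 and 0 CPM. The 5 subunits of this complex thus had no common profile over the 3 libraries.

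RPA coats single-stranded DNA at forks and also at sites of repair. RPA3, its small subunit (chr7:7636518-7718607), went from 327, 286 and 241 CPM on Day0 and 165, 264 and 267 CPM on Day21 to 9.10, 13.0 and 22.7 CPM on Day42 (log2 fold change -3.96 ± 0.41, edgeR adjusted p = 0.000675). RPA2 was the member with the highest level per length on Day42, 51.0 ± 22.8 FPKM, ahead of PCNA with 38.4 ± 14.1 and POLD2 with 28.6 ± 3.88 FPKM, and these 3 overlap in their spread. It was at 247, 346 and 173 CPM on Day0, at 176, 242 and 251 CPM on Day21 and at 112, 109 and 45.5 CPM on Day42, a log2 fold change of -1.33 ± 0.40 (edgeR adjusted p = 0.041). RPA1, the large subunit, gave 26.1, 19.7 and 0.0475 CPM against 74.6 to 97.2 CPM and did not pass (edgeR adjusted p = 0.231). RPA2 lost its call in 11 alternatives, and named pseudogenes, with which reads could be exchanged, make its level uncertain. The same holds for PCNA, POLD2, RFC3, RFC5, FEN1, RRM2 and TYMS.

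Okazaki fragments are trimmed by FEN1 and DNA2 and sealed by LIG1. DNA2 (chr10:68414064-68472121) was low throughout, at 7.64, 9.29 and 8.47 CPM on Day0 and at 9.61, 8.07 and 7 CPM on Day21, and had no count on Day42, at least 56.5-fold lower (edgeR adjusted p = 0.00104). FEN1 gave 28.5, 33.5 and 0 CPM against 165 to 195 CPM, and LIG1 gave 6.58, 12.8 and 0.0475 CPM against 44.2 to 84.9 CPM. Both lay under Day21 in every library without passing (edgeR adjusted p = 0.2 and 0.125). At the fork checkpoint, TIMELESS, part of the complex that protects forks, went from 16.1, 14.2 and 31.4 CPM on Day0 and 40.3, 22.3 and 29.1 CPM on Day21 to 0.0512, 0.0472 and 0 CPM, a 210-fold difference with Day42 set at the limit (fitted log2 fold change -9.79 ± 1.25, edgeR adjusted p = 0.00155). CLSPN, which encodes the adaptor claspin, had the steadiest level of any member on Day21, 199, 191 and 190 CPM, and then 14.7, 0 and 0 CPM (edgeR adjusted p = 0.128).

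Nucleotide supply had 3 of 4 genes called (75.0%, beside 19.7% of all genes tested), the largest share of any role though on only 4 genes. TK1, the thymidine kinase of S phase (chr17:78174091-78187233), gave 166, 118 and 136 CPM in stem cells, 62.1, 78.0 and 109 CPM in progenitors and 0, 0.0472 and 0 CPM in Day42 libraries. The Day42 level rests on 4 counts in 1 library. With each Day42 library set at the limit of 12 counts, progenitors were 570-fold higher (log2 change -9.15). The fitted log2 fold change was -12.18 ± 1.16 (edgeR adjusted p = 0.000502), whose size beyond that limit is not resolved. RRM2, the S-phase subunit of ribonucleotide reductase, went from 122, 126 and 112 CPM to 1.32, 2.13 and 0.0949 CPM (log2 fold change -6.66 ± 1.00, edgeR adjusted p = 0.00279). RRM1, the large subunit of the same enzyme, kept 48.7 and 26.9 CPM in replicates 1 and 2 and had none in replicate 3, against 115 to 138 CPM, and did not pass (edgeR adjusted p = 0.355). TYMS, thymidylate synthase, went from 192, 186 and 178 CPM to 5.25, 3.24 and 0 CPM (log2 fold change -6.03 ± 1.59, edgeR adjusted p = 0.024). In TYMS, 46.6% of exon bases belong to genes on the other strand as well, and in RRM2 20.2% to a model on the same strand.

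Chromatin assembly was called for CHAF1A alone among 3 genes (33.3%, beside 19.7% of all genes tested). CHAF1A, the large subunit of CAF-1 (chr19:4402640-4443397), gave 106, 92.3 and 143 CPM in stem cells and 105, 75.5 and 82.9 CPM in progenitors and had no count in any Day42 library. Stem cells and progenitors overlapped. It was at least 604-fold lower in Day42 libraries than in progenitors, with the lowest adjusted p of all members (edgeR adjusted p = 0.00013). Its partner CHAF1B was not lost in the same way, at 1.87, 10.6 and 0 CPM against 25.6 to 32.1 CPM (edgeR adjusted p = 0.27). ASF1B, the histone chaperone of dividing cells, gave 0, 3.69 and 0 CPM against 118, 123 and 126 CPM (edgeR adjusted p = 0.0548).

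Against Day0 the Day42 libraries gave nearly the same picture, and because both comparisons use the same Day42 libraries their values are only set side by side. Again 21 members fell and 0 rose (44.7%, against 23.4% of all genes tested), and these were the same 21 genes. All 47 log2 fold changes were negative, with a median of -3.64 beside -0.57 over all genes. All Day42 libraries lay under all Day0 libraries for 43 members (91.5%), against 34.1% of genes tested. Relative to Day0, CHAF1A was at least 781-fold lower, POLA2 at least 185-fold, ORC1 at least 127-fold, CDT1 at least 96.8-fold and DNA2 at least 58.1-fold. The log2 fold change of MCM5 was -8.88 ± 1.86 (edgeR adjusted p = 0.00773) and that of PCNA -2.71 ± 0.35 (edgeR adjusted p = 0.0012). Without Day42 replicate 3, 34 members were called lower (25.9% of genes tested), the 21 among them.

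From stem cells to progenitors, no member passed the test in either direction, with 0 of 47 at an unadjusted p under 0.05 and 1 called by DESeq2. Of all genes tested, 2.5% were called by edgeR in this comparison. The signs were mixed, 27 negative and 20 positive, or 23 and 24 with plain library totals, and the median was -0.06 beside 0.03 over all genes. Libraries of both days overlapped for 33 members. The other 14, with all libraries of Day21 under those of Day0 in 8 and above them in 6, compare with 46.9% of genes tested whose libraries did not overlap. The estimate of spread in this fit also covers Day42, where the members varied most. Members with a positive sign included RRM1, with 64.8, 74.5 and 64.5 CPM on Day0 and 135, 115 and 138 CPM on Day21 and no overlap (log2 fold change 0.93 ± 1.56, edgeR adjusted p = 0.938). LIG1, at 26.5, 21.5 and 63.5 CPM and then 84.9, 52.9 and 44.2 CPM, overlapped, as did CHAF1B at 14.2, 27.4 and 18.2 CPM and then 32.1, 29.5 and 25.6 CPM. MCM10 gave 36.3, 34.8 and 36.9 CPM and then 56.9, 39.0 and 34.6 CPM, and GINS3 gave 7.84, 12.2 and 15.9 CPM and then 19.2, 15 and 14.5 CPM. MCM10 and GINS3, with RFC1 (43.4, 38.4 and 41.8 CPM, then 50.6, 38.2 and 38.5 CPM), RFC5 (37.8, 56.1 and 43.2 CPM, then 49.5, 60.9 and 45.7 CPM) and CLSPN (191, 171 and 162 CPM on Day0), overlapped between the days.

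With only Day0 and Day21 in the model, 6 members passed, and 25.6% of all genes tested did. CDC6, MCM3 and MCM5 were lower in progenitors and CDC45, TYMS and ASF1B higher. At an unadjusted edgeR p under 0.05 in this fit were 13 of 47 members and 7841 of 19541 genes. TYMS went from 57.5, 81.3 and 62.0 CPM to 192, 186 and 178 CPM, a log2 fold change of 1.46 ± 0.21 (edgeR with 2 days, adjusted p = 0.00212). ASF1B rose from 46.7, 42.4 and 63.4 CPM to 118, 123 and 126 CPM (1.25 ± 0.22, adjusted p = 0.00481), and CDC45 by 1.04 ± 0.19 on the log2 scale (adjusted p = 0.00569). CDC6 went from 90.0, 163 and 108 CPM to 49, 46.6 and 52.0 CPM (-1.30 ± 0.26, adjusted p = 0.00816). MCM3 and MCM5 had log2 fold changes of -1.06 ± 0.20 (adjusted p = 0.00743) and -1.35 ± 0.31 (adjusted p = 0.0141). The rest of the ring was split, as MCM4 and MCM6 lay lower on Day21 with no overlap, at 81.8, 78.0 and 86.1 CPM against 114 to 138 CPM for MCM4, while MCM2 and MCM7 overlapped.

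Members varied far more from library to library on Day42 than before. Over members, the median coefficient of variation came to 0.178 for stem cells, 0.163 for progenitors and 1.15 for Day42 libraries. For comparison, genes with a Day21 mean at or above the lowest member, 5.07 CPM, had medians of 0.254 (9423 genes with a count on Day0), 0.187 (9449 genes) and 0.699 (9244 genes with a count on Day42). POLD2 was the most even member on Day42, at 0.181. In Day0 and Day21 libraries, 0 members had 12 counts or fewer. On Day42 the share was 36.2%, 27.7% and 72.3% in replicates 1, 2 and 3, against 9.08%, 6.65% and 36% of the comparison genes and 34.2%, 30.2% and 60.2% of all genes tested.

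The pattern of detection over the 3 Day42 libraries sorted the members into 4 classes. Above 12 counts in all 3 were 10 members, GMNN, MCM7, PRIM1, POLD2, POLE, POLE2, PCNA, RFC2, RPA2 and RPA3. At or under 12 counts in all 3 were 9, ORC1, CDT1, CDC45, POLA2, POLD1, DNA2, TIMELESS, TK1 and CHAF1A. Another 19 were at or under it in 1 library and 9 in 2 libraries. The same classes were not counted over all genes, so it is not known whether their sizes are particular to the members. In replicates 1, 2 and 3 of Day42, 34.2%, 30.2% and 60.2% of all genes tested had 12 counts or fewer. Members such as MCM2, CLSPN, RFC3 and ASF1B therefore had at least 313 counts in 1 Day42 library and 0 in the other two. What sets such a library apart was not tested, and with 3 libraries a mean of these values describes no single one of them.

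**Figure D5:**
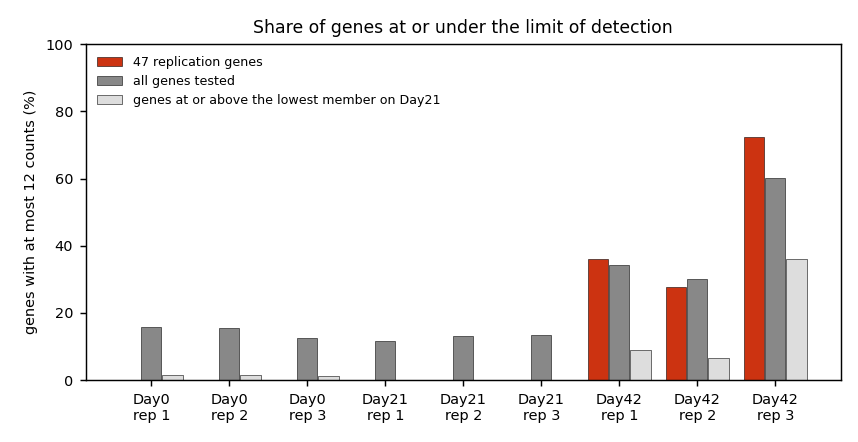
Percent of genes with at most 12 counts in each library, for the 47 members (red), all genes tested (grey) and the 9449 genes at or above the lowest member's Day21 level (light grey). Members reach 36.2%, 27.7% and 72.3% in the Day42 libraries and 0 on the earlier days.

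Of a list of 34 further fork, licensing and S-phase genes outside the set, 13 fell from Day21 to Day42 (38.2%, beside 19.7% of all genes tested), 0 rose and 21 did not pass. Their median log2 fold change was -2.21, and without Day42 replicate 3, 16 were called lower. UHRF1, which links replication to DNA methylation, and CHTF18, of an alternative clamp loader, had no count on Day42. In contrast to ORC1 at 0, ORC3, another subunit of the origin recognition complex, was at 48.6, 54.8 and 60.5 CPM on Day21 and at 64.5, 72.4 and 67.1 CPM on Day42 (log2 fold change 0.31 ± 0.26, edgeR adjusted p = 0.446). DUT, which clears dUTP, was at 52.0, 41.4 and 103 CPM on Day42, on both sides of its Day21 range of 70.0 to 77.5 CPM. A p above the threshold does not show that these levels were equal.

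Genes upstream of S phase and of the next phase were read beside the members. Of 22 genes of E2F factors, G1/S cyclins and their kinases, 10 fell (45.5%, beside 19.7% of all genes tested) and 0 rose, and without Day42 replicate 3 these counts were 12 and 1. E2F1, an activator E2F, was at 31.8, 18.1 and 13.8 CPM on Day21 and had no count on Day42, as had CCNE2. E2F3, of the same list, was at 4.1, 0.0472 and 13.8 CPM on Day42 against 5.59 to 10.1 CPM on Day21. E2F4, a factor known for repression in resting cells, was at 7.37, 14.3 and 47.9 CPM against 17.3 to 31.8 CPM. CDKN2D, an inhibitor of CDK4 and CDK6, rose from 23.6, 29.7 and 38.4 CPM to 234, 222 and 298 CPM (log2 fold change 3.04 ± 0.29, edgeR adjusted p = 0.000524). It was the 1 gene of 7 CDK inhibitors that rose between these days, or 1 of 2 without Day42 replicate 3, and CDKN2A fell to no count. CDKN1A, which encodes p21, had risen before, from 9.45, 6.93 and 15.6 CPM on Day0 to 408, 330 and 220 CPM on Day21 (log2 fold change 4.90 ± 0.46, edgeR adjusted p = 0.00199). It was at 173, 204 and 109 CPM on Day42, still above Day0 (log2 fold change 3.93 ± 0.44, edgeR adjusted p = 0.000589). Of 22 mitosis genes, 17 fell and 0 rose, and BUB1, CENPA and ASPM had no count on Day42. Their median log2 fold change was -7.27 with the 12 genes at or under the limit in every Day42 library set at it, and the fitted median of -10.12 lies beyond what these counts resolve. Without Day42 replicate 3, 21 of the 22 were called lower. Their sum came to at most 118 CPM on Day42 after 2970.9 to 3224.6 CPM on Day21. Mitosis genes were uneven on Day42. The proliferation marker MKI67 was at 0.102, 0.0472 and 0.0475 CPM, CENPE at 7.81, 7.09 and 8.83 CPM and TPX2 at 0, 0.189 and 72.8 CPM. Whether the counts left in the members come from dividing cells was not tested.

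Counterparts that work outside S phase were mixed. ASF1A, the paralog of ASF1B, was at 108, 181 and 232 CPM on Day21 and at 164, 162 and 162 CPM on Day42 (log2 fold change -0.09 ± 0.41, edgeR adjusted p = 0.918). Of 10 genes of the replication-independent histone H3.3 and its chaperones, 2 rose and 2 fell, the latter a share of 20.0% that is near the 19.7% of all genes tested. H3-3B, an H3.3 gene, and ATRX, a remodeller that deposits H3.3, rose, and H3-3A and DEK fell. Of 15 genes of nucleotide supply, repair and mitochondrial replication used in resting cells, 3 rose and 0 fell, while 6.52% of all genes tested were called higher. Without Day42 replicate 3, 3 were called higher and 1 lower. DCK, a salvage kinase, rose from 16.8, 17.1 and 17.1 CPM to 56.4, 75.4 and 138 CPM (log2 fold change 2.41 ± 0.42, edgeR adjusted p = 0.00435), POLB, the repair polymerase, by 1.48 ± 0.39 (edgeR adjusted p = 0.0241) and LIG4, the ligase of end joining, by 4.02 ± 0.85 (edgeR adjusted p = 0.00953).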

How the data were processed

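RNA of 9 libraries, 3 each from Day0, Day21 and Day42, was sequenced. Trizol RNA, about 10 ng a library, went into a low-input kit, per the labels' protocols. Per the submitters' processing notes, the tools were cutadapt 1.9 and FastQC and the build GRCh38. The sources used here give no aligner, counting program or strand setting. Per the file headers, the authors deposited a raw count and an FPKM value per gene and library, and the whole-number counts sum to different totals. Day and replicate were read from the labels, with 0 value columns unmatched.

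Members and lists were chosen with earlier results of these data known. Counts of 20156 genes kept by filterByExpr were scaled by TMM and tested with edgeR 4.0.16 in R 4.3.3, with 1 mean per day over all 9 libraries (6 residual degrees of freedom). P-values were adjusted by Benjamini-Hochberg over all genes tested, and a call needs an adjusted p below 0.05 together with a log2 fold change of 1 or more in size. The table holds 7999 values of 4 but only 3658 of 3 and 3700 of 5, so counts may not be independent fragments, and the limit for a count of 0 was set at 12 counts. Limits cover counting error only. Per library this limit came to 0.141 to 0.269 CPM.

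Alternatives were median-of-ratios scaling, no filter, DESeq2 1.42.0, limma 3.58.1 (voom with sample weights, and log2 FPKM with pseudocounts of 1 and 0.1 for 10619 genes reaching an FPKM of 1 in 3 libraries), a model of 2 days, a block for the replicate number, and each library left out. After seeing the data, 2 more were added, plain library totals and only 2 days without Day42 replicate 3. The code was tested on simulated data. Tables were made in Python 3.11.15 (numpy 2.4.6, pandas 2.3.3) and figures in matplotlib 3.10.9.

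All 47 members may be named. The rule gives values in every library for MCM2, PCNA and CDC45, the called member with the largest change per role, members against the median's sign, and the 3 highest and 3 lowest by FPKM on Day42. From other lists it names up to 3 called genes with the largest change. A result under this rule is not reported here. Other genes with values, namely ORC3, DUT, E2F3, E2F4, MKI67, CENPE, TPX2, ASF1A and DEK, were chosen after their values were seen. Overlaps and pseudogenes were read from GENCODE 29.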

Additional observations from a re-analysis of the deposited data

How the results depend on the processing

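Against 0 members called between Day21 and Day0, DESeq2 called 1, log2(FPKM + 1) 1, voom with sample weights 5 and the 2 days alone 6 (also 6 in that fit when Day42 replicate 3 is dropped, since it holds no Day42 library). Leaving out 1 library gave 0 to 1. For Day42 against Day21, the 21 calls became 39 with voom, 35 with log2(FPKM + 1), 33 with log2(FPKM + 0.1) and 34 with 2 days without Day42 replicate 3. Leaving out 1 library gave 17 to 35, with 35 without Day42 replicate 3 and at most 25 otherwise. For Day42 against Day0 these values were 40, 35, 32 and 32, and leaving out 1 library gave 18 to 34. The summed level of 11.9% was 20.4% by FPKM and 17.1% by plain totals. With 2 days only, the Day21 against Day0 counts of the other lists were 5 for other replication genes, 8 for G1/S genes, 1 for mitosis and 3 for nucleotide and repair genes, each 0 in the joint fit. The fit of 2 days called 25.6% of all genes tested and the joint fit 2.5%. The causes were not tested.

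Signs turned for PRIM1 and POLE2. PRIM1 against Day21, at -0.16, was 0.02, 0.32 and 0.41 without Day21 replicate 1, Day42 replicate 1 and Day42 replicate 2, -1.84 without Day42 replicate 3, and 0.27 with plain totals. POLE2 against Day21, at 0.02, was -2.84 with voom, -0.38 and -0.77 with FPKM pseudocounts of 1 and 0.1, -1.19 with the replicate block, -0.01 and -0.04 without Day21 replicates 2 and 3, 0.67 without Day42 replicate 1, -2.85 without Day42 replicate 3, and -2.87 with 2 days and without Day42 replicate 3. POLE2 against Day0, at -0.15, was 0.49 and 0.44 without Day42 replicates 1 and 2, -3.03 without Day42 replicate 3 and 0.37 with plain totals.

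With the replicate number as a block, 0, 17 and 19 members were called in Day21 against Day0, Day42 against Day21 and Day42 against Day0. Deviations of same-numbered libraries from the means of their days had correlations of -0.225 to 0.0266. Differences that run through a whole library, such as those of Day42 replicate 3, enter these deviations. The correlations therefore cannot exclude that the numbers pair libraries. Of the 26 uncalled members, 24 were called lower in at least 1 alternative against Day21 and 23 against Day0. The same counts were not made over all genes tested.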

Other observations

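Most members deviated to the same side in 2 libraries of different days. Day0 replicate 3 and Day21 replicate 1 were both above the mean of the other 2 libraries of their day for 22 members and both below it for 15. The ratio to the other 2 libraries was at least 1.5 in both for 7 members, POLD1 (4.31 on Day0 and 2.40 on Day21), CDT1 (3.12 and 1.59), LIG1 (2.65 and 1.75), MCM2 (2.16 and 1.57), MCM7 (2.12 and 1.52), TIMELESS (2.07 and 1.57) and ORC1 (1.93 and 1.53). GMNN (0.525 and 0.644), GINS2 (0.574 and 0.646) and RPA3 (0.786 and 0.623) lay on the other side in both. Over the 47 members, which share these libraries and are not independent, the Spearman rho of the 2 ratios was 0.835. The same ratios were not taken over all genes tested, so the pattern is not shown to be particular to the members. Genes outside the set deviated in both libraries too, MYBL2 upward and FABP7 downward. These members and genes were chosen after their values were seen, and no cause was tested.

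POLE was the member with the lowest level per length on Day0 and Day21, at 0.173 ± 0.0315 and 0.284 ± 0.0189 FPKM (SD, n = 3), although it encodes the catalytic subunit of polymerase epsilon, whose partner POLE2 was at 4.91 ± 1.43 and 4.51 ± 0.984 FPKM. The table gives POLE 16609 exon bases in GENCODE 29, the most of all members. The deposited length behind its FPKM was not analysed here.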
